A study of Mus musculus with 2 samples.

Results

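Gm49794, Gm10505 and Gm49793 are 3 long noncoding genes on mouse chromosome 17. Per microRNA read, their piRNA-sized reads matching no annotated gene outside these loci stood in Tdrkh-/- testes at roughly a hundredth of the Tdrkh+/- level. With sequences shared with other genes included, reads of 24 to 30 nt were 43.7-fold lower and those of 31 to 37 nt 5.74-fold lower. Among annotated protein-coding and long noncoding genes, Gm49794 and Gm10505 were among the richest sources of piRNA-sized reads in Tdrkh+/- testes. Gm49793 was a smaller one. Only 51.5% of all reads in Tdrkh-/-, against 46.4% in Tdrkh+/-, matched an annotated transcript, and sources outside transcripts were not ranked. The members are the small RNA sequences of 18 to 40 nt that match, exactly and on either strand, a GENCODE M21 transcript of 1 of these genes. There were 25123 such sequences of 22794309 distinct sequences in both libraries. Of them, 2061 were read in Tdrkh-/-, 24774 in Tdrkh+/- and 1712 in both. Of all distinct sequences, 12118721 were read in Tdrkh-/-, 11808018 in Tdrkh+/- and 1132430 in both. The 3 genes were chosen for their loss of reads in these same libraries, so the size of that loss is a description and carries no test.

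The study compared whole testes of Tdrkh-/- mice with those of Tdrkh+/- mice, both taken 11 days after birth, when the first germ cells have entered meiosis. The knockout allele lacks exons 2 to 4 of Tdrkh, which include the start codon, and was made by crossing floxed mice on a C57Bl6/129 background to EIIa-Cre mice, with the Cre transgene bred out afterwards. EIIa-Cre acts in the early embryo, so the allele is passed on through the germ line, and the control mice carry 1 copy of it. For each genotype 5 pairs of testes were pooled into 1 library of gel-purified RNA of 15 to 40 nt.

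piRNAs are small RNAs of germ cells that guide PIWI proteins to transposons and other RNAs. Long single-stranded precursors are transcribed from clusters, cut on the surface of mitochondria so that the fragments preferentially begin with U, loaded onto a PIWI protein and trimmed at the 3′ end to the length the protein covers. TDRKH is a Tudor domain protein of the mitochondrial surface that holds PIWI proteins in mice and is needed for that trimming. A second route, the ping-pong cycle, makes piRNAs in pairs from opposite strands whose 5′ ends overlap by 10 nt.

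The Tdrkh-/- library held 60973266 reads and the Tdrkh+/- library 43172204. MicroRNA reads, to which all levels are scaled, numbered 2476230 in Tdrkh-/- and 2344599 in Tdrkh+/-. In exons 2 to 4 of Tdrkh, 0 sense reads were counted for Tdrkh-/- and 17 for Tdrkh+/-, while its other exons had 1572 and 1212 reads in the same order. With 1 library per genotype no difference has a replicate check, and all 95% intervals below cover counting error only.

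Sequences from the most read 5′ ends are given first, each with its place on GRCm38. At Gm49794 and Gm10505 the 3 5′ ends with most Tdrkh+/- reads are shown, at Gm49793 the first 2. Each sequence is the most abundant one of 24 to 30 nt at its end, written 5′ to 3′ as DNA with the first base, the U of the RNA, in capitals. In the order listed they lie at chr17:27358233-27358260 (plus strand), chr17:27358606-27358632 (plus), chr17:27360169-27360196 (plus), chr17:27338770-27338798 (plus), chr17:27343456-27343481 (plus), chr17:27332317-27332346 (plus), chr17:27309659-27309686 (minus) and chr17:27309612-27309638 (minus).
Gm49794 end 1: Tgcttcattctgtggatctgacatgcct
Gm49794 end 2: Taccagttggataatgcacttcctatt
Gm49794 end 3: Taacgatgtataacaggcaactctccct
Gm10505 end 1: Tacctttaatcccagatgaccttgaactc
Gm10505 end 2: Tcccagtagactctccagatgtgccc
Gm10505 end 3: Ttccagtcggtccaacattgctgtcagcct
Gm49793 end 1: Ttacagttgacatttccatcggtgagac
Gm49793 end 2: Tgaaaatggcatgcttgcgataggctg

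The most abundant of these, Gm49794 end 1, was read 522 times in Tdrkh-/- and 53030 times in Tdrkh+/-. Gm10505 end 1 was read 368 times in Tdrkh-/- and 40443 times in Tdrkh+/-. Gm49793 end 1 was read 14 times in Tdrkh-/- and 1475 times in Tdrkh+/-. All 8 sequences were read in both libraries, and all were found in 1 annotated gene alone.

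Reads of 24 to 30 nt, the size of mature piRNAs, are called short reads below, and those of 31 to 37 nt long reads. All sequences of the 3 genes together had 19677 short reads in Tdrkh-/-, against 814384 in Tdrkh+/-. That is a log2 ratio of -5.45 (-5.47 to -5.43) per microRNA read. Among long reads they had 18210 reads in Tdrkh-/-, against 99018 in Tdrkh+/-, a log2 ratio of -2.52 (-2.55 to -2.50). These sums hold 2 kinds of sequence that behaved differently. Sequences that match no annotated gene outside the loci, here called sequences of the loci alone, made up 32.4% of the short reads in Tdrkh-/-, against 85.5% in Tdrkh+/-. Genes that overlap a member count as inside the loci, and copies outside annotated transcripts were not searched for. Sequences found in more than 20 genes on 1 strand, here called repeats, made up 58.4% in Tdrkh-/-, against 9.995% in Tdrkh+/-.

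Sequences of the loci alone numbered 22457. They had 6365 short reads in Tdrkh-/-, against 696320 in Tdrkh+/-, 116-fold lower per microRNA read (log2 ratio -6.85, -6.89 to -6.82). Among long reads they had 621 reads in Tdrkh-/-, against 76354 in Tdrkh+/-, 130-fold lower (log2 ratio -7.02, -7.14 to -6.91). As a share of all short reads of the library they were 0.0432% in Tdrkh-/-, against 2.25% in Tdrkh+/-. In bulk testis RNA, fewer cells of a type and less RNA per cell cannot be told apart.

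Gm49794 (ENSMUSG00000116879.1, a lincRNA at chr17:27354111-27367492, plus strand) was the largest source. It had 4097 short reads of the loci alone in Tdrkh-/-, against 439546 in Tdrkh+/-, and 418 and 54478 reads in the same order among long reads. The log2 ratios were -6.82 (-6.87 to -6.78) among short reads and -7.11 (-7.25 to -6.97) among long reads. Gm10505 (ENSMUSG00000073430.5, a processed transcript at chr17:27325035-27344833, plus strand) had 2180 short reads in Tdrkh-/-, against 248198 in Tdrkh+/-. Among long reads it had 203 reads in Tdrkh-/-, against 21515 in Tdrkh+/-. Its log2 ratios were -6.91 (-6.97 to -6.85) and -6.81 (-7.01 to -6.61). Gm49793 (ENSMUSG00000116751.1, a lincRNA at chr17:27308316-27318696, minus strand) was a far smaller source, with 88 short reads in Tdrkh-/-, against 8576 in Tdrkh+/- (log2 ratio -6.69, -7.01 to -6.38). Its long reads numbered 0 in Tdrkh-/-, against 361 in Tdrkh+/-, 127-fold lower with a floor of 3 counts in place of 0 (upper limit of the ratio 0.009725). The 3 ratios among short reads lay within 0.23 of each other on the log2 scale.

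As host genes, 4007 genes annotated as protein-coding or long noncoding were taken, each with 500 or more sense short reads over both libraries. Of these hosts, most had lower levels among short reads and higher levels among long reads in Tdrkh-/-. For these values a read in several genes was divided among them and repeats were left out. The median log2 ratio over the 4007 genes was -1.58 among short reads and 1.73 among long reads. At least 2-fold lower levels among short reads were found in 3 of the 3 genes and in 73.3% of the 4007. Among long reads the corresponding figures were 3 of 3 and 1.22%, and in both windows 3 of 3 and 1.2%. A level at least 32-fold lower among short reads was found in 3 of 3 and in 0.824%. The rule that chose the genes used these ratios, so nothing is read from the counts. By number of short reads Gm49794 ranked 190 of 4007 in Tdrkh-/-, against 1 in Tdrkh+/-, Gm10505 ranked 380 in Tdrkh-/-, against 4 in Tdrkh+/-, and Gm49793 ranked 3842 in Tdrkh-/-, against 211 in Tdrkh+/-.

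**Figure D1:**
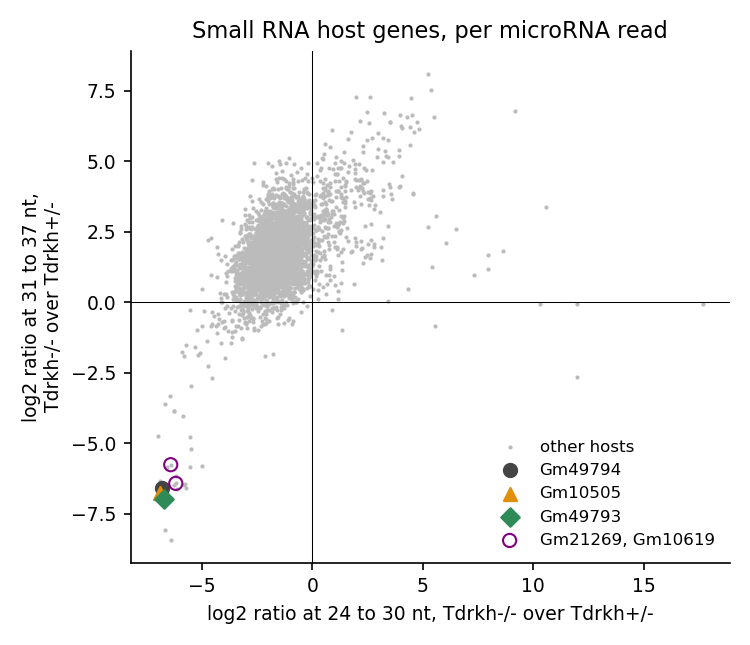
Log2 ratios of Tdrkh-/- over Tdrkh+/- per microRNA read at 24 to 30 nt (horizontal axis) and 31 to 37 nt (vertical axis), 1 point for each of 4007 host genes. The 3 genes lie together at the lower left, below -6 on both axes, with Gm21269 and Gm10619 of chromosome 7 beside them, while the median gene lies at -1.58 and 1.73; a gene with 0 reads is drawn at the floor of 3 counts.

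The few reads of the loci alone left in Tdrkh-/- had nearly the lengths of the Tdrkh+/- reads. Over sequences of the loci alone the mean read length was 28.03 nt (SD 2.68 over 7274 reads) in Tdrkh-/-, against 28.2 nt (SD 2.82 over 807609 reads) in Tdrkh+/-. The most frequent length was 28 nt in both, with 21.1% of reads in Tdrkh-/-, against 20.7% in Tdrkh+/-. All other transcript matches had a mean of 32.2 nt in Tdrkh-/-, against 28.6 nt in Tdrkh+/-. Long reads per read of 24 to 30 nt stood at 0.0976 (0.0897 to 0.106) in Tdrkh-/-, against 0.110 (0.109 to 0.111) in Tdrkh+/- for the loci alone. For all other transcript matches the same quantity was 2.11 in Tdrkh-/-, against 0.211 in Tdrkh+/-. Among the host genes this quantity was not higher in Tdrkh-/- at 1 of the 3 genes, Gm49793, and at 1.47% of the 4007.

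**Figure D2:**
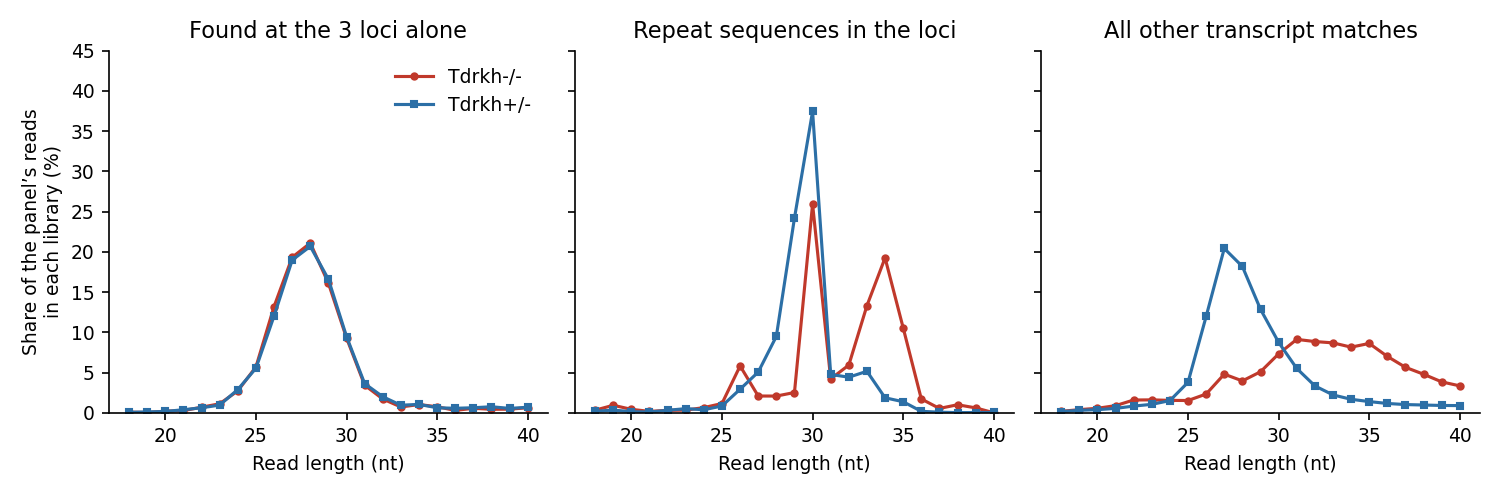
Share of reads (vertical axis, %) at each read length from 18 to 40 nt (horizontal axis) in Tdrkh-/- and Tdrkh+/-, for sequences of the 3 loci alone, for repeat sequences in the loci and for all other transcript matches. The curves of the loci alone lie on each other with a peak at 28 nt; the repeat sequences have a peak at 34 nt in Tdrkh-/- that is absent in Tdrkh+/-, and the other matches are shifted to longer reads in Tdrkh-/-.

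All lengths from 18 to 40 nt were lower in Tdrkh-/- at the loci alone. From 24 to 35 nt, single lengths were between 97.7-fold lower at 35 nt and 153-fold lower at 33 nt. Outside that range the values ran wider, on at most 82 Tdrkh-/- reads per length, while 33 nt inside it had 53. Reads of 18 nt were 89.8-fold lower, on 6 Tdrkh-/- reads, and reads of 19 nt 319-fold lower, on 3. Reads of 36 nt were 219-fold lower (ratio 0.00457, 0.00286 to 0.00693) and those of 38 nt 202-fold lower (ratio 0.00496, 0.00339 to 0.00700), below the ratio of 0.00870 (0.00827 to 0.00915) at 28 nt. At 28 nt there were 1535 reads in Tdrkh-/-, against 167108 in Tdrkh+/-, 115-fold lower. At 34 nt there were 75 reads in Tdrkh-/-, against 8454 in Tdrkh+/-, 119-fold lower. The genes had length profiles of their own, which both libraries shared. Gm49794 peaked at 28 nt, with 25.3% of its reads in Tdrkh-/-, against 24.7% in Tdrkh+/-. Gm10505 peaked at 29 nt, with 27.9% in Tdrkh-/-, against 28.5% in Tdrkh+/-. Gm49793 was most frequent at 27 nt in Tdrkh-/-, on 89 reads, and at 28 nt in Tdrkh+/-.

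At shared 5′ ends of Gm49794 and Gm10505 the reads had nearly the same lengths in both libraries, whereas at 1700001L05Rik and Klf13 most ends had longer reads in Tdrkh-/-. Both of those genes also had lower levels among short reads in Tdrkh-/-, by 3.78-fold at 1700001L05Rik and 10.96-fold at Klf13, and higher levels among long reads. At 81 ends of Gm49794 with at least 10 Tdrkh-/- and 50 Tdrkh+/- reads, the mean length differed by a median of -0.14 nt (Tdrkh-/- minus Tdrkh+/-, interquartile range -0.57 to 0.18), and it was longer in Tdrkh-/- at 43.2% of ends. At 49 ends of Gm10505 the median difference was 0.01 nt (interquartile range -0.22 to 0.41). At 210 ends of 1700001L05Rik on chromosome 15, the second most abundant host in Tdrkh+/-, it was 3.06 nt (1.22 to 5.08), and 93.3% of ends were longer in Tdrkh-/-. At 64 ends of Klf13, a transcription factor gene on chromosome 7, it was 2.96 nt, and 93.8% were longer.

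**Figure D3:**
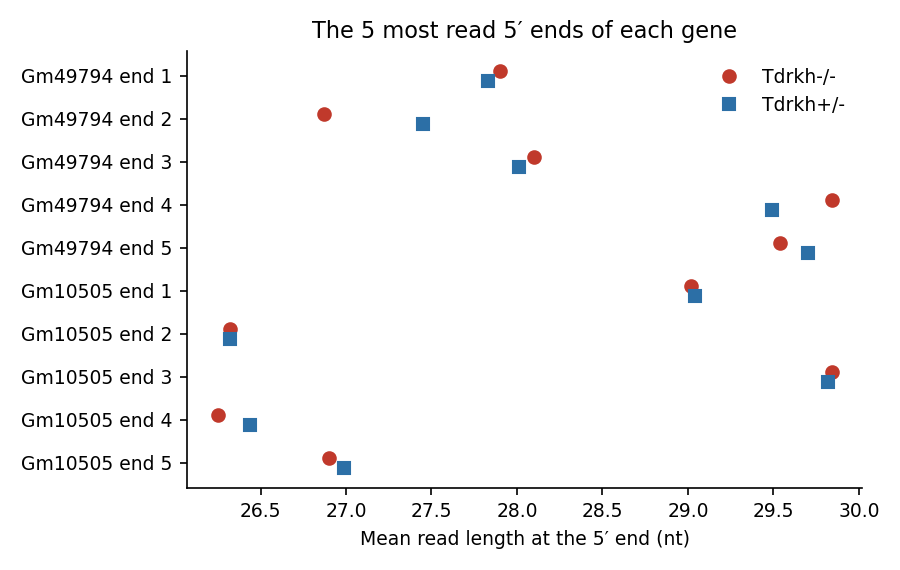
Mean read length in nt (horizontal axis) at the 5 5′ ends of Gm49794 and of Gm10505 with most Tdrkh+/- reads, in Tdrkh-/- and in Tdrkh+/-. The ends differ from each other by up to 3.6 nt, and at each end the points of both libraries lie within 0.6 nt of each other.

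The reads of Gm49794 and Gm10505 covered largely the same parts of each gene in both libraries, while the shares of the Gm49793 exons differed. Of the 24 to 40 nt sense reads of Gm49794, 98.0% in Tdrkh-/-, against 97.3% in Tdrkh+/- began in its first exon of 10545 bases, and the rest in its second exon. A stretch of 1000 bases, chr17:27358111-27359110, held 34.1% of the reads in Tdrkh-/-, against 34.6% in Tdrkh+/-. That stretch had 1554 reads in Tdrkh-/-, against 174491 in Tdrkh+/-, whereas the last 494 bases of the gene had 8 and 714 in the same order. Across 14 bins the loss ran from 85.1-fold in the first bin to 189-fold in the bin chr17:27363111-27364110, while the level in Tdrkh+/- ran over more than 100-fold.

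Gm10505 has 26 annotated transcripts, and its exons fall into 9 separate blocks with very unequal levels. The densest, chr17:27338743-27338911, had 2278 reads per kb in Tdrkh-/-, against 255235 in Tdrkh+/-. The block chr17:27335833-27336068 had 0 reads in Tdrkh-/-, against 2409 per kb in Tdrkh+/-. The 8 blocks with reads in both libraries were 89.98-fold to 130.2-fold lower in Tdrkh-/-. At Gm49793 the middle exon, chr17:27309527-27309711, held 76.1% of the reads in Tdrkh-/-, against 83.0% in Tdrkh+/- (ratio 0.00839, 0.00650 to 0.0107). Its last exon, chr17:27308316-27308468, held 20.45% in Tdrkh-/-, on 18 reads, against 7.34% in Tdrkh+/- (ratio 0.0255, 0.0150 to 0.0406). Its first exon held 3.41% in Tdrkh-/-, on 3 reads, against 9.62% in Tdrkh+/-. Reads across a splice junction were rare in both libraries: 0 and 11 at Gm49794, 2.5 and 306 at Gm10505 and 0 and 3 at Gm49793, each pair given for Tdrkh-/- and then Tdrkh+/-. Reads with several places in a gene were divided among them, which gives the fractions. The matching was to transcripts, so reads of introns outside annotated genes were not analysed here.

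**Figure D4:**
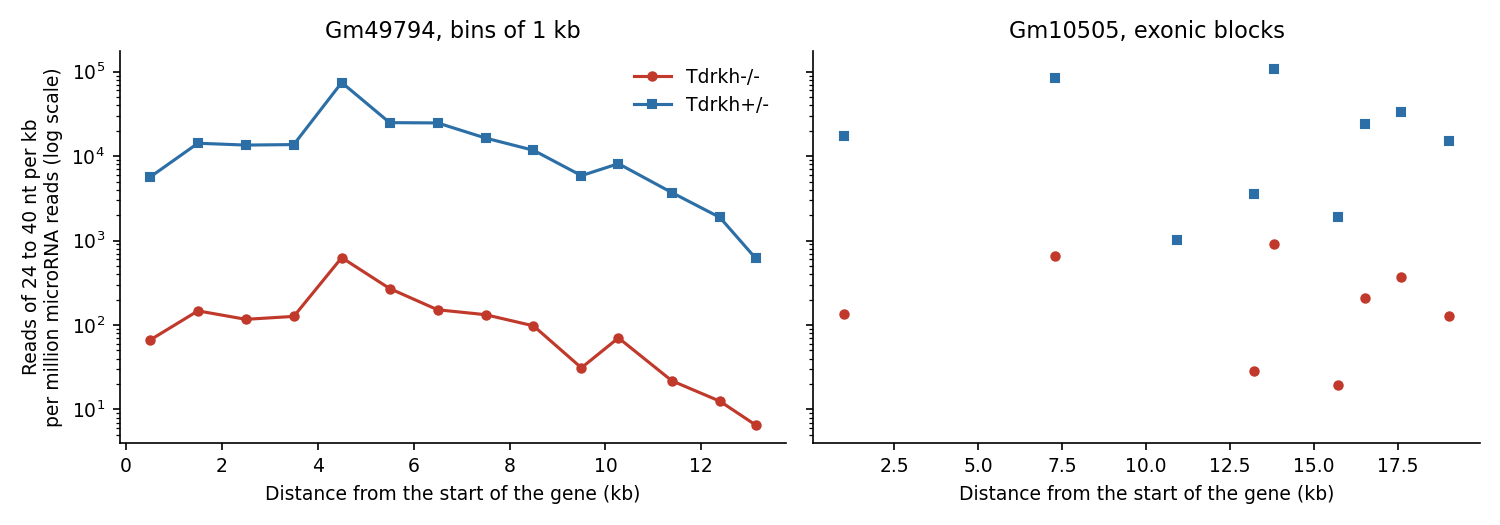
Sense reads of 24 to 40 nt of the loci alone per kb and per 1000000 microRNA reads (vertical axis, log scale) against the distance from the gene's start in kb, for bins of Gm49794 and exonic blocks of Gm10505, in Tdrkh-/- and Tdrkh+/-. The Tdrkh-/- values follow the Tdrkh+/- values at about a hundredth of the level; 1 block of Gm10505 with 0 reads in Tdrkh-/- has no Tdrkh-/- point.

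A small number of 5′ ends held most reads. At Gm49794 475 positions carried a 5′ end in Tdrkh-/-, against 4005 in Tdrkh+/-, of 13039 exonic positions, and 466 carried one in both. Its 10 most used Tdrkh+/- ends held 36.2% of the reads in Tdrkh-/-, against 37.3% in Tdrkh+/-. At Gm10505 204 positions carried an end in Tdrkh-/-, against 1713 in Tdrkh+/-, and 202 in both, with 50.6% of reads in Tdrkh-/-, against 46.5% in Tdrkh+/- at the 10 most used. At Gm49793 14 positions carried an end in Tdrkh-/-, against 159 in Tdrkh+/-, and all 14 were among the 159.

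All 8 ends shown above were lower in Tdrkh-/-, from 87.8-fold to 189-fold. Gm49794 end 1 had 584 reads of 24 to 40 nt in Tdrkh-/-, against 65223 in Tdrkh+/-, 118-fold lower. Gm49794 end 2 had 343 in Tdrkh-/-, against 45702 in Tdrkh+/-, 141-fold lower, and end 3 had 107 in Tdrkh-/-, against 19175 in Tdrkh+/-, 189-fold lower. The interval of the ratio was 0.00433 to 0.00639 at end 3 and 0.00780 to 0.00920 at end 1, so the ends were not all alike. Gm10505 end 1 had 382 in Tdrkh-/-, against 41223 in Tdrkh+/-, 114-fold lower. Gm49793 end 1 had 24 in Tdrkh-/-, against 1996 in Tdrkh+/-, 87.8-fold lower, and its end 2 had 8 in Tdrkh-/-, against 1349 in Tdrkh+/-, 178-fold lower. At 41 ends of Gm49794 with at least 2000 Tdrkh+/- reads the log2 ratio ran from -9.25 to -5.75 with a median of -6.88, and 37 lay within 2-fold of the ratio of the whole gene. At 26 such ends of Gm10505 it ran from -8.70 to -6.20, and 22 lay within 2-fold. At 16 ends of 1700001L05Rik it ran from -5.98 to 1.14, and 5 lay within 2-fold.

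**Figure D5:**
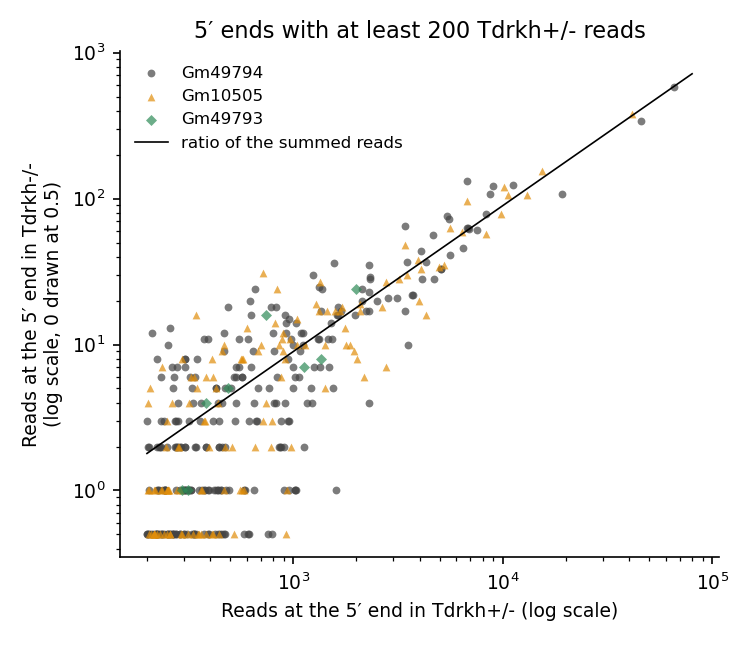
Reads of 24 to 40 nt at each 5′ end with at least 200 Tdrkh+/- reads, in Tdrkh-/- (vertical axis) against Tdrkh+/- (horizontal axis), both on log scales, with ends of 0 Tdrkh-/- reads drawn at 0.5. The points of the 3 genes scatter around 1 line, the ratio of their summed reads, over the whole range of levels.

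Nearly every short read left in Tdrkh-/- had a sequence that was also read in Tdrkh+/-. Of 918 distinct short sequences of the loci alone in Tdrkh-/-, 894 were read in Tdrkh+/-, and they carried 98.4% of the Tdrkh-/- reads. Among long sequences the share was lower, 170 of 187, with 90.3% of the Tdrkh-/- reads. Over all sequences of the series, of any length, 1132430 of 12118721 in Tdrkh-/- were also read in Tdrkh+/-. At the loci alone Tdrkh+/- had many more short reads, 696320 against 6365, which makes a shared sequence easier to find. Counting the first 24 nt alone, 99.3% (99.0 to 99.5) of the Tdrkh-/- short reads shared their 5′ end with a short read of Tdrkh+/-. With the start shifted by 1 to 10 nt the median was 68.5% and the highest value 93.2%. Among reads that begin with U the share was 99.5%, and shifted starts that fell on a U gave 91.5% at the median and 99.4% at most. In the other direction 88.1% of Tdrkh+/- reads shared their 5′ end with a Tdrkh-/- read, against a median of 17.5% at shifted starts. The long reads of Tdrkh-/- shared their 5′ end with a short read of Tdrkh+/- in 94.0% of cases. Shifted starts gave 65.8% at the median and 80.35% at most. Among long reads that begin with U the share was 95.98%. Shifted starts that fell on a U gave 84.8% at the median and 97.35% at most, above the unshifted share. The part of reads carried over from the Tdrkh+/- library in the Tdrkh-/- counts was not tested.

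The base at the 5′ end was U in both libraries. Of the short reads of the loci alone, 90.4% (89.7 to 91.1) in Tdrkh-/-, against 91.7% (91.7 to 91.8) in Tdrkh+/- began with U, whereas U made up 23.7% of the Gm49794 transcript, 23.1% of the longest Gm10505 transcript and 23.4% of the Gm49793 transcript. Among long reads the shares were 84.2% (81.1 to 86.9) in Tdrkh-/-, against 87.1% (86.8 to 87.3) in Tdrkh+/-. Gm49793 had the lowest share among short reads, 66 of 88 reads in Tdrkh-/-, against 89.7% (89.1 to 90.3) in Tdrkh+/-. An A at position 10, counted from the 5′ end among reads without a 5′ U, stood at 33.8% (30.2 to 37.7) in Tdrkh-/-, against 28.1% (27.7 to 28.5) in Tdrkh+/-.

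The base after the 3′ end in the transcript shows where a neighbouring piRNA could begin. At Gm49794 it was U for 41.1% (39.6 to 42.6) of the short reads in Tdrkh-/-, against 40.9% in Tdrkh+/-. At Gm10505 it was U for 23.5% (21.8 to 25.3) in Tdrkh-/-, against 22.4% in Tdrkh+/-, close to the U content of the transcript. Reads of Gm49794 whose 5′ end lay directly after the 3′ end of another read made up 6.45% of all pairs 1 to 30 nt apart in Tdrkh-/-, against 8.25% in Tdrkh+/-, where an equal spread gives 3.33%. At Gm10505 they made up 1.19% in Tdrkh-/-, against 1.67% in Tdrkh+/-. This distance of 1 nt was not the most frequent one at any of the 3 genes. At Gm49794 the most frequent was 19 nt, with 12.4% of pairs in Tdrkh-/-, against 22.1% in Tdrkh+/-, and at Gm10505 it was 6 nt, with 30.6% in Tdrkh-/-, against 29.1% in Tdrkh+/-. At Gm49793 it was 21 nt in both libraries. Each pair was weighted by the product of its read counts.

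The loci were read almost entirely from 1 strand. Sequences of the loci alone had 6351 sense and 14 antisense short reads in Tdrkh-/-, against 695695 sense and 625 antisense reads in Tdrkh+/-. At Gm49794 there were 14 antisense reads in Tdrkh-/-, against 192 in Tdrkh+/-, 14.5-fold lower (ratio 0.0690, 0.0370 to 0.119), a smaller loss than that of its sense reads. The gene Gm49795 runs antisense over the start of Gm49794 and counts as inside the loci, so some of these antisense reads may be its own. Their number was not tested. Gm10505 had 0 antisense reads in Tdrkh-/-, against 427 in Tdrkh+/-, 150-fold lower with the floor in place of 0 (upper limit of the ratio 0.008215). No sense and antisense short reads overlapped by 1 to 24 nt in Tdrkh-/-. Its 14 antisense reads were 4 distinct sequences, too few to show whether such pairs were lost. In Tdrkh+/- 55.9% of the pair weight lay at an overlap of 10 nt, where an equal spread over the 24 overlaps gives 4.17%.

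A single pair at Gm10505 gave 52.0% of that 10 nt weight in Tdrkh+/-, taken over 24 to 40 nt. The next 2 pairs, both at Gm49794, gave 21.6% and 6.64% on only 4 and 5 antisense Tdrkh+/- reads. The sense end of the Gm10505 pair had 6 reads in Tdrkh-/-, against 2163 in Tdrkh+/-, and its antisense end had 0 in Tdrkh-/-, against 203 in Tdrkh+/-. The most abundant sequences of both ends lie at chr17:27325736-27325763 (plus strand) and chr17:27325721-27325745 (minus strand), and the 10 complementary bases are in capitals. The sense sequence begins with U in the RNA, the antisense sequence with C.
Gm10505 sense: TAAGATCCAGgaaaagataaaaacttgc
Gm10505 antisense: CTGGATCTTActttgccgctggccc

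The repeats in the loci behaved otherwise. They numbered 718 sequences and had 11498 short reads in Tdrkh-/-, against 81400 in Tdrkh+/-, 7.48-fold lower (log2 ratio -2.90, -2.93 to -2.87). Among long reads they had 15865 reads in Tdrkh-/-, against 18103 in Tdrkh+/-, 1.21-fold lower (log2 ratio -0.27, -0.30 to -0.24). Their mean length was 31.4 nt in Tdrkh-/-, against 29.6 nt in Tdrkh+/-, and they had 1.38 long reads per short read in Tdrkh-/-, against 0.222 in Tdrkh+/-. Reads of 34 nt, 19.3% of the repeat reads in Tdrkh-/-, against 1.87% in Tdrkh+/-, were 2.75-fold higher (2.61 to 2.90) in Tdrkh-/-. Antisense repeat long reads numbered 1484 in Tdrkh-/-, against 376 in Tdrkh+/-, 3.74-fold higher (3.34 to 4.20). These sequences each match over 20 genes, so their reads may come from any of those places.

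Many repeat reads matched 1 spot in the first kilobase of Gm49794, among other genes. The sense end at position 27354982 of chromosome 17, whose sequences match 40 to 42 genes, held 72.7% of the repeat reads of 24 to 40 nt in Tdrkh-/-, against 46.1% in Tdrkh+/-. Among short reads it had 9221 reads in Tdrkh-/-, against 38442 in Tdrkh+/- (log2 ratio -2.14, 95% interval of the ratio 0.222 to 0.232). Among long reads it had 10995 in Tdrkh-/-, against 7470 in Tdrkh+/-, a ratio of 1.39 (1.35 to 1.44). The next end along, at 27354983, had 835 short reads in Tdrkh-/-, against 23900 in Tdrkh+/-, a ratio of 0.0331 (0.0308 to 0.0355). The antisense end at 27354991, which overlaps the first sense end by 10 nt, had 1283 long reads in Tdrkh-/-, against 313 in Tdrkh+/-, a ratio of 3.88 (3.43 to 4.41). This pair of ends gave 99.4% of the 10 nt weight of repeats in Tdrkh-/-, against 92.7% in Tdrkh+/-. An overlap of 10 nt took 69.5% of the repeat pair weight among long reads in Tdrkh-/-, against 40.9% in Tdrkh+/-. The sequences are not printed here.

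The remaining 1948 sequences matched, besides a member, a gene elsewhere but no more than 20 genes. They had 1814 short reads in Tdrkh-/-, against 36664 in Tdrkh+/-, 21.4-fold lower. Among long reads they had 1724 reads in Tdrkh-/-, against 4561 in Tdrkh+/-, 2.79-fold lower. Their loss lay between that of the loci alone and that of the repeats in both windows.

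The annotation places 4 microRNA genes inside the 3 loci, and their hairpins carried reads of piRNA length. Mir7217 and Mir7218 lie in the first exon of Gm49794, Mir7216 in an intron of Gm10505 and Mir7214 in an intron of Gm49793, each on the strand of its host. Mir7217 had 24 reads of 18 to 40 nt in Tdrkh-/-, against 1234 in Tdrkh+/-, 54.3-fold lower. Mir7218 had 5 in Tdrkh-/-, against 406 in Tdrkh+/-, 85.8-fold lower. Mir7214 had 11 in Tdrkh-/-, against 474 in Tdrkh+/-, 45.5-fold lower. Mir7216 had 0 in Tdrkh-/-, against 91 in Tdrkh+/-, 32.04-fold lower with the floor in place of 0 (upper limit of the ratio 0.0392). All 4 were lower in Tdrkh-/-, and none had an antisense read in either library.

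In Tdrkh+/- short reads made up 70.7% of those in Mir7214, 49.5% in Mir7216, 57.1% in Mir7217 and 92.4% in Mir7218, and 95.2%, 77.8%, 95.3% and 94.1% of them, in the same order, began with U. The most frequent length was 27, 31, 27 and 26 nt. RefSeq (GRCm38.p6) gives 7 mature microRNAs for the 4 hairpins. Only miR-7217-3p was read at its exact sequence, 1 time in Tdrkh-/-, against 3 times in Tdrkh+/-. Reads that share the first 18 nt of miR-7217-5p numbered 9 in Tdrkh-/-, against 8 in Tdrkh+/-, and those of miR-7218-5p 2 in Tdrkh-/-, against 10 in Tdrkh+/-. The mature sequences of Mir7217, the hairpin with most reads, are shown as RNA with the seed, bases 2 to 8, in capitals, and their seeds differ. They lie at chr17:27355738-27355762 and chr17:27355778-27355799, both on the plus strand.
mmu-miR-7217-5p: aACUUGUAucuugugagacagaagg
mmu-miR-7217-3p: uGAGAACCcacaagcaagaaga

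Beside them stands the most abundant read of the same hairpin, written as DNA with the first base in capitals. It is 37 nt long, lies at chr17:27355741-27355777 and was found 1 time in Tdrkh-/-, against 220 times in Tdrkh+/-. It starts at another base than the annotated microRNAs.
Mir7217 read: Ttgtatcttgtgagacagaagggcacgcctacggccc

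No other gene nearby with at least 100 Tdrkh+/- short reads had so low a ratio. Within 200 kb of the 3 genes 23 other genes are annotated, and 13 had at least 20 short reads over both libraries. Uqcc2, a mitochondrial assembly factor gene, had 51.5 short reads in Tdrkh-/-, against 358 in Tdrkh+/- (log2 ratio -2.88), and 150 and 115 in the same order among long reads. Hmga1, which encodes a chromatin protein, had 71.5 short reads in Tdrkh-/-, against 331 in Tdrkh+/- (log2 ratio -2.29). Lemd2, a nuclear envelope protein gene, had 36 short reads in Tdrkh-/-, against 103 in Tdrkh+/-. Grm4, a glutamate receptor gene 54.9 kb from Gm49794, had 36 short reads in Tdrkh-/-, against 37 in Tdrkh+/-, and 77 and 12 long reads in the same order. Among the neighbours outside the loci with at least 100 Tdrkh+/- short reads, Gm49774 had the lowest ratio among short reads. It had 246 reads in Tdrkh-/-, against 4442 in Tdrkh+/-, 19.1-fold lower. Annotated as antisense, it overlaps only the first bases of Hmga1, on the opposite strand. Among long reads Gm49774 had 420 reads in Tdrkh-/-, against 686 in Tdrkh+/-, 1.73-fold lower. C130040N14Rik had 1 read of 24 to 30 nt in Tdrkh-/-, against 27 in Tdrkh+/-, a log2 ratio of -4.83 (-10.19 to -2.23). The pseudogenes Gm16005 and Gm9703 shared over 95% of their reads with other genes and had log2 ratios of -3.45 and -2.08. Gm49795, which runs antisense over the start of Gm49794, had 273 short reads in Tdrkh-/-, against 541 in Tdrkh+/-, and 14.1% of its reads came from sequences found in that gene alone. Among long reads Gm49795 had 380 in Tdrkh-/-, against 98.98 in Tdrkh+/-.

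The 5 genes most like Gm49794 were picked by the distance between their pair of log2 ratios and its own, among 2971 host genes with at least 90% of reads from sequences in 1 gene. They were 4930463O16Rik on chromosome 10, Gm30132 on chromosome 8, Gm21269 on chromosome 7, Gm14244 on chromosome 2 and C230062I16Rik on chromosome 7. All 5 are annotated as noncoding. 4930463O16Rik had 18 short reads in Tdrkh-/-, against 2025 in Tdrkh+/-, 119-fold lower. Gm30132 had 125 in Tdrkh-/-, against 9112 in Tdrkh+/-, 76.9-fold lower. Gm21269 had 718 in Tdrkh-/-, against 48973 in Tdrkh+/-, 72.1-fold lower. Gm14244 was 69.0-fold lower and C230062I16Rik 71.8-fold lower among short reads, and all 5 were 71.6-fold to 98.4-fold lower among long reads. Those long-read values rest on few Tdrkh-/- reads: 3 at 4930463O16Rik, 4 at C230062I16Rik, 8 at Gm14244, 18.33 at Gm30132 and 82 at Gm21269. At 4930463O16Rik the log2 ratio among long reads was -6.33 (-8.615 to -4.76). Likeness is over 2 libraries and 2 values, and it chose these genes, so it is a description.

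Gm21269 and Gm10619 lie next to each other on chromosome 7 on opposite strands. Gm10619 had 179 short reads in Tdrkh-/-, against 14310 in Tdrkh+/-, 84.4-fold lower, and it was 54.0-fold lower among long reads. At 18 ends of Gm21269 the mean read length differed by a median of -0.09 nt, and 27.8% of ends were longer in Tdrkh-/-. Gm49793 and Gm10505 likewise lie next to each other on opposite strands, with 6338 bases between the genes.

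Promoter windows from RefSeq were used for Gm10505, at 2 start sites. Each window, 250 bases before to 50 after the start, was searched on both strands for forms of the element bound by MYB proteins, namely TAACGG and its variant TAACTG, or CAACGG and its variant CAACTG. These proteins include A-MYB (Mybl1), which drives many pachytene piRNA clusters in mice. Each of the 2 windows held 1 match, as did 28.3% of 32851 windows at least once. The window of the first start site, chr17:27324946-27325245 on the plus strand of GRCm38.p6, is shown because the annotated 5′ end of Gm10505 lies in it. Its match, in capitals, begins 73 bases before the RefSeq start, inside the first exonic block of the GENCODE annotation (chr17:27325035-27327024), and is the reverse complement of TAACTG. A match is a description of these letters.
Gm10505 promoter: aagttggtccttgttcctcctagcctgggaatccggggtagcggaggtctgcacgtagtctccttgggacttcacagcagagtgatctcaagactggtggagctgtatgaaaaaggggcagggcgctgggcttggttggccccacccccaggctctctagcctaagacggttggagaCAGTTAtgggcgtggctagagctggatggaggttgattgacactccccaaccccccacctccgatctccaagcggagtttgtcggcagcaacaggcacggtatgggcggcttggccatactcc

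Of 5 microRNAs of meiotic and later male germ cells (Mir34b, Mir34c, Mir449a, Mir449b and Mir449c), Mir34c and Mir34b were lower in Tdrkh-/- beyond counting error. Mir34c had 119 reads in Tdrkh-/-, against 549 in Tdrkh+/- (log2 ratio -2.29, -2.58 to -1.996). Mir34b had 21 in Tdrkh-/-, against 43 in Tdrkh+/-, Mir449a had 48 in Tdrkh-/-, against 37 in Tdrkh+/- (ratio 1.23, 0.783 to 1.94), Mir449c had 4 in Tdrkh-/-, against 9 in Tdrkh+/- (ratio 0.421, 0.0947 to 1.51), and Mir449b had 0 in both. Their sum, of which Mir34c was the largest part, was 77.5 per 1000000 microRNA reads in Tdrkh-/-, against 272 in Tdrkh+/-, 0.285 of the Tdrkh+/- level (0.241 to 0.335). Mir202 of Sertoli cells had 790 reads in Tdrkh-/-, against 668 in Tdrkh+/-, and the smooth muscle microRNAs Mir143 and Mir145a had 89046 and 456 in Tdrkh-/-, against 92824 and 333 in Tdrkh+/-. The part of these markers in the loss at the loci was not tested.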

How the data were processed

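The authors deposited raw read counts of distinct small RNA sequences, 1 table per library; the values are whole-number counts with no normalization. Per the labels' protocols, RNA of 15 to 40 nt was gel-purified and read on an Illumina Genome Analyzer II. The submitters' processing notes name Bowtie and mm9; the sources used here give neither their versions nor trimming or filters. The tables hold no coordinates.

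Every sequence was matched exactly, on both strands, to GENCODE M21 transcripts (GRCm38) with a matcher in Python 3.11.15 that used Numba 0.67.0 and NumPy 2.4.6, with pandas 2.3.3 for tables, SciPy 1.17.1 for intervals and Matplotlib 3.10.9 for figures. A genome sequence was not used here. Each sequence of a member was counted once with its whole count, and genes that overlap a member counted as inside the loci. Levels are per microRNA read, meaning reads of 18 to 25 nt sense in microRNA hairpins, repeats left out. Ratios are Tdrkh-/- over Tdrkh+/- with exact conditional binomial intervals and shares have Wilson intervals (95%). Intervals cover counting error only, since PCR copies cannot be told from separate molecules without molecular identifiers. For a ratio against 0 reads, 3 counts in that library served as the floor. No test was run, there being 1 library per genotype.

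Named genes are the 3 members, neighbours within 200 kb with at least 20 reads, the 5 genes most like Gm49794 and comparison loci. The members, lists and comparison loci were chosen with earlier results of these data known. The matcher was checked against a string search on 120 sequences (0 differed). The ratios were also tested on simulated data for 4007 genes at 24 to 30 nt, drawn from a Poisson distribution. In these draws 100 of 100 genes lowered 32-fold and 100 of 100 lowered 4-fold passed the 2-fold mark, and 0 unchanged genes did. The draws leave out variation between animals, libraries and PCR copies, so they check the calculation alone. Alternatives covered the weight of a sequence, sequences read once, multiple matches, strand, scaling and length windows.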

Additional observations from a re-analysis of the deposited data

How the results depend on the processing

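No paired analysis was possible because each genotype has 1 library. The log2 ratio of the 3 loci was -5.45 at 24 to 30 nt and -2.52 at 31 to 37 nt, and it stayed below 0 under all alternatives run. Both values were, in that order, -6.85 and -7.02 for sequences of the loci alone, -3.61 and -3.80 with every distinct sequence given a weight of 1, -5.53 and -2.71 with sense matches alone, -5.87 and -2.94 per read listed, -6.02 and -3.09 per read that matches a transcript, and -5.98 and -1.44 at 26 to 28 nt and 33 to 36 nt. Without sequences read once the first was -5.47. In 2 alternatives added after seeing the data, the loci alone gave -3.90 and -5.00 with a weight of 1 per distinct sequence, and -7.27 and -7.44 per read listed. Long reads per short read in Tdrkh-/-, 0.925, became 0.381 with a weight of 1 per distinct sequence, 0.0976 for the loci alone, 0.856 for sense matches and 1.84 in the narrower windows. The 5′ U share of Tdrkh-/-, 90.6%, became 73.9% with a weight of 1 per distinct sequence, 91.7% for sense matches and 86.4% at 26 to 28 nt. The share of Tdrkh-/- reads with a 5′ end of Tdrkh+/-, 99.3%, became 97.1% with a weight of 1 per distinct sequence, 98.95% without sequences read once, 99.7% for sense matches and 98.9% at 26 to 28 nt. Values of Gm49793 in Tdrkh-/- rest on 89 reads. The cause of these changes was not tested, except that leaving out shared sequences removes the repeats by construction.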
